A study of Mus musculus with 23 samples.

Results

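Metallothioneins are small cysteine-rich proteins that bind zinc and copper, and zinc transporters move zinc across cell membranes. The 7 genes described here are 3 metallothioneins (Mt1, Mt2 and Mt3), the zinc-sensing transcription factor gene Mtf1, the zinc exporter gene Slc30a1 and the zinc importer genes Slc39a10 and Slc39a14. They were taken by gene symbol from the 3 tissue tables, which together held 29894 distinct gene identifiers, and all 7 were in every table. RNA was sequenced from C57BL/6 mice, an inbred laboratory strain, that had 8 weeks of oxaliplatin at 10 mg/kg or of vehicle. Oxaliplatin is a platinum drug given against colorectal cancer. Tibialis anterior, a shin muscle, gave 5 oxaliplatin and 4 vehicle libraries. Subcutaneous white fat gave 4 oxaliplatin and 3 vehicle libraries, and so did the hypothalamus, the brain region that controls feeding. The libraries carry numbers (oxaliplatin 1 to 5 and vehicle 1 to 4 in muscle, oxaliplatin 2 to 5 and vehicle 1, 2 and 4 in the other two tissues), called mouse numbers here. The labels do not say whether a number is the same animal in every tissue, and the sources used here state no age.

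As background, Mt1 and Mt2 are made in most tissues and are induced by zinc and cadmium, by glucocorticoid hormones and by inflammatory signals, while Mt3 is made mainly in the brain. MTF1, the product of Mtf1, binds metal response elements in the promoters of Mt1, Mt2 and Slc30a1 when free zinc rises. ZnT1 (Slc30a1) carries zinc out of the cell, ZIP10 (Slc39a10) carries it in, and ZIP14 (Slc39a14) carries zinc, iron and manganese in and is induced by inflammatory signals in liver. Metallothioneins can also bind platinum drugs.

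The muscle libraries held 22.4 to 32.2 M counts (M, mega) with oxaliplatin and 27.3 to 31.2 M with vehicle. The fat libraries held 16.5 to 18 M and 16.9 to 22.7 M, and the hypothalamus libraries 23.6 to 26.4 M and 27.3 to 28.5 M. The muscle library titled oxaliplatin 5 has vehicle as its treatment entry. It was kept with oxaliplatin, which its title, its library name and the numbers of samples in the design text give. Muscle values of Mt1 and Mt2 are also given without it and with it as vehicle. Other muscle values keep it with oxaliplatin unless stated. In fat, vehicle 4 held 120136 CPM (counts scaled to a library total of 1 M) summed over 5 muscle fibre markers, against 271 to 2984 CPM in the oxaliplatin libraries and 12.7 and 1139.64 CPM in the other vehicle libraries. Adipocyte markers were present in every fat library (3333 to 8631 CPM summed over 5 genes with oxaliplatin, 8674 to 12070 CPM with vehicle), and 6 neuron markers summed to 1960 to 2792 and 2353 to 2512 CPM in hypothalamus. The labels number the mice and say nothing of cages, litters or days, so the p-values measure the spread between these libraries, part of which may be technical.

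The coding sequences of the 3 metallothioneins show what the family shares and how far its reads can be told apart. Each is printed from the reference transcript with the in-frame TGC and TGT codons, which encode cysteine, in capitals.
Mt1: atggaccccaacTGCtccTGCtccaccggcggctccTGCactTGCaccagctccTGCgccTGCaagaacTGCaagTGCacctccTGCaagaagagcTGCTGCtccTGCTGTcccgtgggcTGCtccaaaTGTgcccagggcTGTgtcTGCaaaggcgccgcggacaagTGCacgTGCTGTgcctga
Mt2: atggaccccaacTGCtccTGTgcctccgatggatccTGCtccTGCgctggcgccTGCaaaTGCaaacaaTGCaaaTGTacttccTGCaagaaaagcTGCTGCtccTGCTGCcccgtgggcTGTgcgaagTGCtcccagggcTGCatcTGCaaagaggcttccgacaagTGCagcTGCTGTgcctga
Mt3: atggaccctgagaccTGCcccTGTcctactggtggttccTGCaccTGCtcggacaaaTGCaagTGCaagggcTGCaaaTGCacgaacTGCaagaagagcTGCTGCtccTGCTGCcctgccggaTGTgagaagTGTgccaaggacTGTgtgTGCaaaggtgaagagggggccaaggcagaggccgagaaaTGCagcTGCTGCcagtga
Mt1 and Mt2 have 61 codons before the stop and Mt3 has 68, and each has 20 cysteine codons. Over 186 aligned bases, Mt1 and Mt2 were identical at 79.6%, Mt1 and Mt3 at 73.7%, and Mt2 and Mt3 at 75.3%. Over their whole transcripts, Mt1 and Mt3 shared no stretch of 31 bases with another gene, and Mt2 shared 0.524% of its stretches. In GENCODE M21 (build GRCm38) the 3 genes lie close together on the plus strand of chromosome 8: Mt3 at chr8:94152607-94154146, Mt2 at chr8:94172664-94173568 and Mt1 at chr8:94179082-94180327. Gm45774 is annotated antisense to Mt2, and the sources used here do not state the strand setting of the counts, so reads of that pair cannot be told apart.

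The promoters of Mt1, Mt2 and Slc30a1, textbook targets of MTF1, are printed from RefSeq (build GRCm38.p6, plus strand, 250 bases before to 50 after the annotated start). Capitals mark the core of the metal response element, searched as TGCACNC and TGCGCNC on both strands.
Mt1, chr8:94178839-94179138: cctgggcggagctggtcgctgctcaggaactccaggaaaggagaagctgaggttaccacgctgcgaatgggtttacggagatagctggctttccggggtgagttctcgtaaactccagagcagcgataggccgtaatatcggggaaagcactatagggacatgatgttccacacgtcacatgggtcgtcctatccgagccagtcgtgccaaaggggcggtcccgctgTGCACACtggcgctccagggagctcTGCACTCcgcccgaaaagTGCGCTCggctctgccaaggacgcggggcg
Mt2, chr8:94172368-94172667: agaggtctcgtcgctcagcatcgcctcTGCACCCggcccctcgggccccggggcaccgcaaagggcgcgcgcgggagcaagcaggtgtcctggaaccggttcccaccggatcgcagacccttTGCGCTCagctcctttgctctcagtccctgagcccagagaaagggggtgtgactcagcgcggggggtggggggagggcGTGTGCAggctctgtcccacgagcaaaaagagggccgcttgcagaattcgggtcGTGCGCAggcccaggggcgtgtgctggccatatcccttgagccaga
Slc30a1, chr1:191906531-191906830: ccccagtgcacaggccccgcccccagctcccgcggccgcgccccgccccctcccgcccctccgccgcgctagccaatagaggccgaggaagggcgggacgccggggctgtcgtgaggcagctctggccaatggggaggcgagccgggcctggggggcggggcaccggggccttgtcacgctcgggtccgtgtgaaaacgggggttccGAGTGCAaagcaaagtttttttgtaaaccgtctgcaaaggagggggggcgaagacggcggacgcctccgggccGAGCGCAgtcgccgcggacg
The core occurred 3 times in the Mt1 window, 4 times in the Mt2 window and 2 times in the Slc30a1 window. Counted in bases from the RefSeq start, the matches began at -23, 2 and 20 for Mt1 and at -223, -128, -50 and 4 for Mt2. For Slc30a1 they began at -43 and 30, so each window held matches on both sides of the RefSeq start. The starts differ between annotations: the GENCODE start of Mt2, chr8:94172664, lies near the end of its window, after all 4 matches. Of 32851 promoter windows of this length, 7.11% held at least 2 matches, 1.97% at least 3 and 0.517% at least 4. The Mt3 window held 1 match, where 25.7% of all windows held at least 1, and those of Mtf1 and Slc39a10 held 0. Windows were found for 6 of the 7 members, and Slc39a14 had none. A match describes the letters and does not show that a factor binds there.

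Levels set the scale for the changes below. They are given per kilobase of exon, as CPM per kb, with the exons of all annotated transcripts of a gene merged. That length was 1.246 kb for Mt1, its whole gene span, and 0.588 kb for Mt2, so the order of genes depends on the annotation. In plain CPM the hypothalamus means with oxaliplatin and vehicle were 204 and 128 for Mt1, 193 and 161 for Mt3, and 110 and 66.9 for Mt2. The tables were made and normalized separately with different library kits. In hypothalamus, Mt2 averaged 187 ± 52.7 CPM per kb with oxaliplatin and 114 ± 12.7 with vehicle (SD, n = 4 and 3), Mt3 181 ± 33.6 and 151 ± 21.2, and Mt1 164 ± 45.2 and 103 ± 10.9. Mt1 in fat averaged 290 ± 274 CPM per kb with oxaliplatin and 57.1 ± 6.29 with vehicle (SD, n = 4 and 3), and in muscle 48.4 ± 40.0 and 14.5 ± 2.93 (SD, n = 5 and 4). Among vehicle libraries the Mt1 level was thus ordered hypothalamus, fat, muscle, and the ranges of the 3 tissues did not overlap (91.3 to 113, 51.1 to 63.6 and 10.6 to 16.8 CPM per kb). Mt2 had the same order in vehicle libraries, again with no overlap. Outside the hypothalamus the level of Mt3 was low. It averaged 0.907 ± 0.331 CPM per kb with oxaliplatin and 0.659 ± 0.0874 with vehicle in muscle. In fat it had 6 to 16 counts per oxaliplatin library and 0 to 11 per vehicle library, under the filter on low counts, so it was not tested there. The exporter Slc30a1 averaged 9.38, 6.93 and 0.435 CPM per kb in vehicle hypothalamus, fat and muscle, and the importer Slc39a10 17.0, 3.95 and 0.970. The importer Slc39a14 averaged 2.48 CPM per kb in vehicle hypothalamus and 2.39 in vehicle fat, with overlapping ranges, and 0.284 in vehicle muscle. Mtf1 varied least between tissues, with vehicle means of 4.25, 3.54 and 1.31 CPM per kb in hypothalamus, fat and muscle.

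Each tissue was then compared between oxaliplatin and vehicle with edgeR's quasi-likelihood test across all genes, Benjamini-Hochberg adjustment and a threshold of 0.05. No member passed in any tissue. Among all genes, the test called 24 of the 14737 tested in muscle (0.163%), 0 of the 19870 in fat (0%) and 28 of the 18941 in hypothalamus (0.148%). At an unadjusted p under 0.05 there were 1 of 7 members in muscle (9.59% of all genes), 3 of 6 in fat (26.1%, or 5178 genes) and 2 of 7 in hypothalamus (10.2%). DESeq2 called 3 members in fat (12.2% of all genes) and none in the other two tissues, and limma-voom called no member and no gene in fat. No member had groups that did not overlap, against 3.89% of all muscle genes tested, 21.5% of those of fat and 9.93% of those of hypothalamus. The median log2 fold change of the tested members was 0.26 in muscle, 1.39 in fat and 0.01 in hypothalamus, against -0.01, 0.03 and 0.01 over all genes tested.

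**Figure D1:**
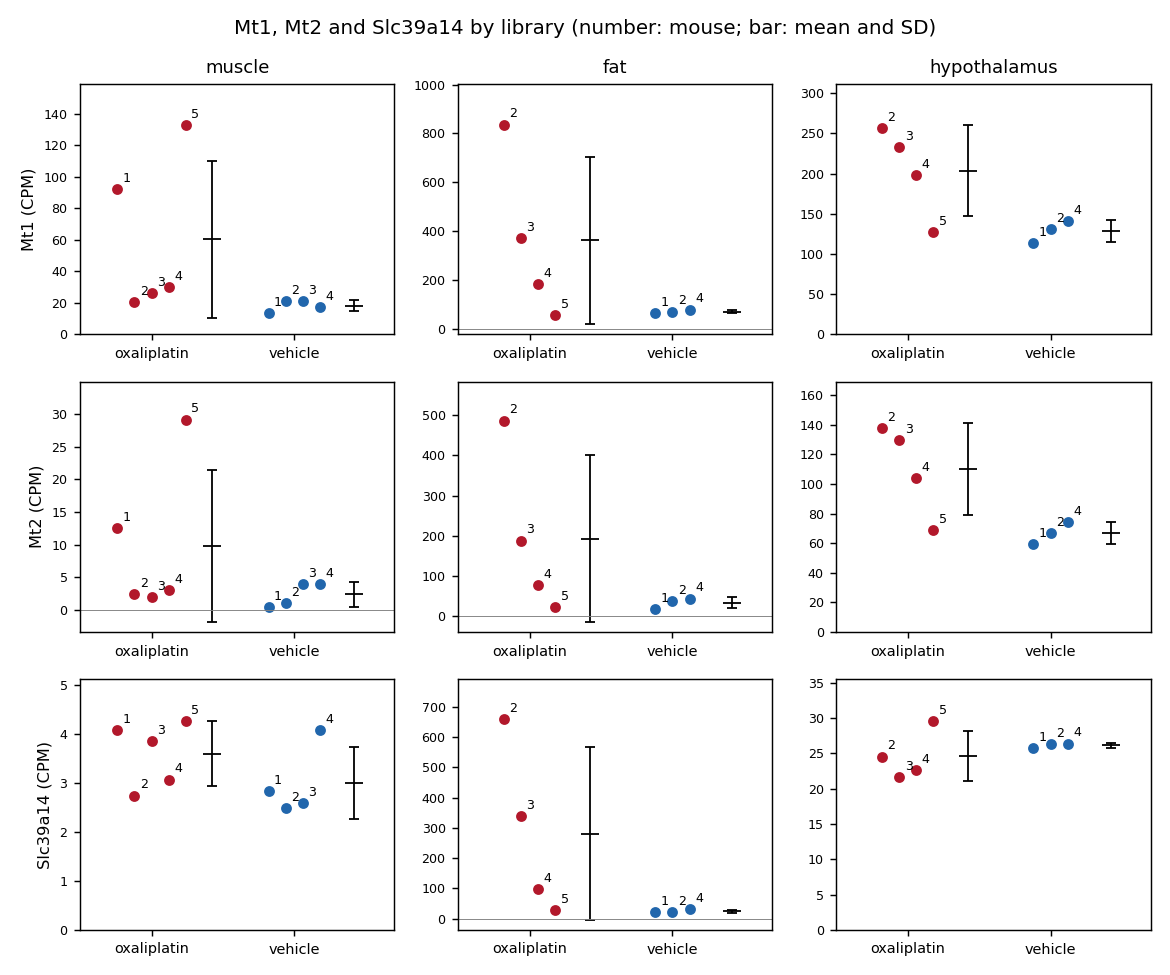
Level in CPM (y axis, linear, 1 scale per panel) of Mt1, Mt2 and Slc39a14 (rows) in muscle, fat and hypothalamus (columns). Each point is a library with its mouse number, oxaliplatin left of vehicle, and bars give mean and SD; in fat, oxaliplatin mice 2 to 4 lie above every vehicle library for all 3 genes and mouse 5 lies at the vehicle level.

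Within fat, the levels of the metallothioneins Mt1 and Mt2 were highest in 3 of the 4 oxaliplatin libraries. Mt1 was at 836, 371, 185 and 55.2 CPM in oxaliplatin mice 2 to 5, and at 63.6, 70.6 and 79.3 CPM in vehicle mice 1, 2 and 4. Mice 2, 3 and 4 were above every vehicle library and mouse 5 was below all of them, so the groups overlapped through that library. Mt2 was at 486, 188, 76.7 and 22.5 CPM in oxaliplatin mice 2 to 5, and at 18.9, 38.8 and 44.3 CPM in vehicle mice 1, 2 and 4, with the same order of mice. The log2 fold change was 2.35 ± 0.82 for Mt1 (SE; 95% interval 0.42 to 4.28; edgeR adjusted p = 0.147) and 2.51 ± 0.98 for Mt2 (0.22 to 4.79; adjusted p = 0.167). In bulk tissue, more RNA per cell and more cells of a type that makes it cannot be told apart.

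The fat result turned on the fourth oxaliplatin library and on the test. Without oxaliplatin 5, Mt1 passed with a log2 fold change of 2.70 (edgeR adjusted p = 0.0181) while Mt2 did not (2.88, adjusted p = 0.0507), and 25.5% of all genes passed as well. DESeq2 called Mt1 (2.33, adjusted p = 0.0147) and Mt2 (2.49, adjusted p = 0.0240) with all libraries. Without oxaliplatin 2, the highest library, the Mt1 value was 1.52 and the Mt2 value 1.5, both uncalled. Without vehicle 4, the library with muscle fibre RNA, Mt1 was at 2.45 ± 1.04 (adjusted p = 0.289) and Mt2 at 2.76 ± 1.24 (adjusted p = 0.302).

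In hypothalamus the same pair of genes showed a smaller difference with the same order of mice. Mt1 was at 257, 233, 198 and 127 CPM in oxaliplatin mice 2 to 5, and at 114, 131 and 141 CPM in vehicle mice 1, 2 and 4. Mt2 was at 138, 130, 104 and 68.9 CPM in oxaliplatin mice 2 to 5, and at 59.4, 67.0 and 74.4 CPM in vehicle mice 1, 2 and 4. For both genes mice 2, 3 and 4 were above every vehicle library and mouse 5 was within the vehicle range. The log2 fold change was 0.67 ± 0.22 for Mt1 (SE; 95% interval 0.17 to 1.17; edgeR adjusted p = 0.393) and 0.72 ± 0.22 for Mt2 (0.21 to 1.23; adjusted p = 0.372). Without oxaliplatin 5 both passed, Mt1 at 0.83 (edgeR adjusted p = 0.00986) and Mt2 at 0.88 (adjusted p = 0.0102), and 3.49% of all genes did so. Mt3, the brain metallothionein, was at 206, 180, 234 and 151 CPM in oxaliplatin mice 2 to 5, and at 135, 168 and 179 CPM in vehicle mice 1, 2 and 4. Its highest library was mouse 4, where the others were highest in mouse 2, and the groups overlapped (0.26 ± 0.15, edgeR adjusted p = 0.585). In brain, metallothioneins 1 and 2 are known as products of astrocytes: 8 astrocyte markers summed to 2904 to 4329 CPM with oxaliplatin and 3832 to 4255 CPM with vehicle, and none of them was called. That sum is mostly Slc1a2, and the members differed in direction. Gfap (-0.73 ± 0.18) and Aldh1l1 (-0.20 ± 0.08) were lower in every oxaliplatin library than in any vehicle library, Aqp4 was at -0.72 ± 0.29, Slc1a3 at 0.39 ± 0.15 and Sox9 at 0.34 ± 0.14. These 5 of the 8 had an unadjusted edgeR p under 0.05, as had 10.2% of all hypothalamus genes tested. Groups without overlap, as for Gfap and Aldh1l1, were found for 9.93% of all genes. The part of astrocytes in the Mt1 and Mt2 values was not tested.

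In muscle, 2 of the 5 oxaliplatin libraries stood out. Mt1 was at 92.1, 20.4, 26.1, 29.9 and 133 CPM in oxaliplatin mice 1 to 5, and at 13.2, 20.8, 21 and 17.2 CPM in vehicle mice 1 to 4. Mice 1 and 5 were far above the rest, mice 3 and 4 just above the vehicle range, and mouse 2 inside it. Mt2 was at 12.5, 2.5, 1.95, 3.09 and 29.1 CPM in oxaliplatin mice 1 to 5, and at 0.492, 1.10, 4.02 and 3.99 CPM in vehicle mice 1 to 4. Again mice 1 and 5 were above every vehicle library, and the other three lay within the vehicle range. The log2 fold change was 1.74 ± 0.61 for Mt1 (SE; 95% interval 0.35 to 3.13; edgeR adjusted p = 0.400) and 2.02 ± 1.01 for Mt2 (-0.31 to 4.35; adjusted p = 0.605). Without library 5, whose labels disagree, the values were 1.22 ± 0.48 for Mt1 and 1.05 ± 0.81 for Mt2. With it as vehicle they were 0.04 ± 0.83 and -0.62 ± 1.15, so that the Mt2 direction turned. Mt3 in muscle was low, with 11 to 47 counts per oxaliplatin library and 15 to 28 per vehicle library (0.47 ± 0.33, edgeR adjusted p = 0.739).

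The muscle vehicle libraries also differed among themselves. Mt2 was lower in vehicle mice 1 and 2 than in vehicle mice 3 and 4, and the ratio of Mt1 to Mt2 was 26.8, 18.9, 5.22 and 4.33 in vehicle mice 1 to 4, against 4.56 to 13.4 in the oxaliplatin libraries. The mean log2 level of 5 adipocyte markers, relative to the vehicle mean, was -1.61, -1.66, 1.17 and 2.10 in vehicle mice 1 to 4. It was -1.24, 0.47, -1.48, 0.77 and 0.63 in oxaliplatin mice 1 to 5, with none of the 5 genes called. Other lists split the vehicle libraries in the same way: in vehicle mice 1 to 4 the acute phase and interleukin 6 list was at -0.95, -0.83, 0.94 and 0.85, macrophage markers at -1.29, -0.63, 0.43 and 1.49, and fibroblast markers at -0.75, -0.38, 0.27 and 0.86. In the oxaliplatin libraries these lists ranged from -0.10 to 0.37, -0.57 to 0.47 and -1.67 to -0.06, with none of their genes called. The part of these lists in the Mt2 level was not tested. The same ratio was narrow in hypothalamus, at 1.79 to 1.91 with oxaliplatin and 1.89 to 1.95 with vehicle. In fat it was 1.72 to 2.46 with oxaliplatin and 1.79 to 3.37 with vehicle.

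Mtf1, which encodes the zinc sensor itself, differed little between groups. It averaged 13.3 ± 1.18 CPM with oxaliplatin and 11.7 ± 1.62 CPM with vehicle in muscle (0.19 ± 0.13), 29.8 ± 3.71 and 31.6 ± 2.84 CPM in fat (-0.08 ± 0.13), and 38.0 ± 3.06 and 37.9 ± 0.370 CPM in hypothalamus (0.01 ± 0.09). The 95% intervals of these log2 fold changes were -0.08 to 0.47, -0.39 to 0.23 and -0.20 to 0.21. The direction in hypothalamus was the opposite with DESeq2's size factors (-0.0011). Mtf1 lies at chr4:124802104-124849800 and overlaps 1110065P20Rik on the other strand and the ribosomal RNA gene n-R5s192 on its own.

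The exporter Slc30a1, at chr1:191906767-191913247, was at 71.6, 49.2, 38.3 and 36.7 CPM in fat of oxaliplatin mice 2 to 5, and at 38.1, 34.7 and 36.2 CPM in vehicle mice 1, 2 and 4. The order of oxaliplatin mice was that of Mt1 and Mt2, and mice 4 and 5 lay at about the vehicle level (0.43 ± 0.24, 95% interval -0.13 to 0.99, edgeR adjusted p = 0.281). In muscle it averaged 2.20 ± 0.532 CPM with oxaliplatin and 2.28 ± 0.691 CPM with vehicle, and in hypothalamus 46.5 ± 5.72 and 49.2 ± 1.85 CPM. The antisense gene 1700034H15Rik overlaps it.

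Slc39a14, the importer of zinc, iron and manganese at chr14:70303469-70351425, had the largest fold change of the members in fat. It was at 659, 339, 97.8 and 28.8 CPM in oxaliplatin mice 2 to 5, and at 22.0, 22.8 and 31 CPM in vehicle mice 1, 2 and 4. Mice 2 to 4 were above every vehicle library and mouse 5 lay inside the vehicle range. The log2 fold change was 3.48 ± 1.02, or 11.1-fold (SE; 95% interval 1.09 to 5.86; edgeR adjusted p = 0.124), and DESeq2 called it (3.46, adjusted p = 0.000806). Without oxaliplatin 5 edgeR called it too (3.85, adjusted p = 0.0170), without oxaliplatin 2 it was at 2.62, and without vehicle 4 at 3.67 ± 1.31 (adjusted p = 0.265). In muscle it averaged 3.59 ± 0.658 CPM with oxaliplatin and 2.99 ± 0.733 CPM with vehicle (0.26 ± 0.21), and in hypothalamus 24.6 ± 3.52 and 26.1 ± 0.327 CPM (-0.09 ± 0.12).

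Slc39a10, the other importer, had another order of mice in fat. It was at 22.1, 23.1, 36.6 and 35.6 CPM in oxaliplatin mice 2 to 5, and at 22.9, 26.3 and 23.0 CPM in vehicle mice 1, 2 and 4. Mice 4 and 5 were above the vehicle range, mouse 3 was inside it and mouse 2 just below it (0.29 ± 0.22, edgeR adjusted p = 0.410). The Slc39a14 to Slc39a10 ratio was therefore 29.8, 14.7, 2.67 and 0.809 in oxaliplatin mice 2 to 5, and 0.959, 0.864 and 1.35 in vehicle mice 1, 2 and 4. In hypothalamus Slc39a10 was at 104, 68.3, 77.9 and 103 CPM in oxaliplatin mice 2 to 5, and at 98.6, 105 and 108 CPM in vehicle mice 1, 2 and 4 (-0.23 ± 0.15, edgeR adjusted p = 0.606). Mice 3 and 4 were the 2 low libraries. In muscle it averaged 6.88 ± 0.688 and 5.91 ± 1.13 CPM with oxaliplatin and vehicle (0.21 ± 0.15). The gene lies at chr1:46807544-46892852, overlaps Gm28151 and Gm37393 on its own strand, and shares 1.62% of its stretches of 31 bases with other genes.

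**Figure D2:**
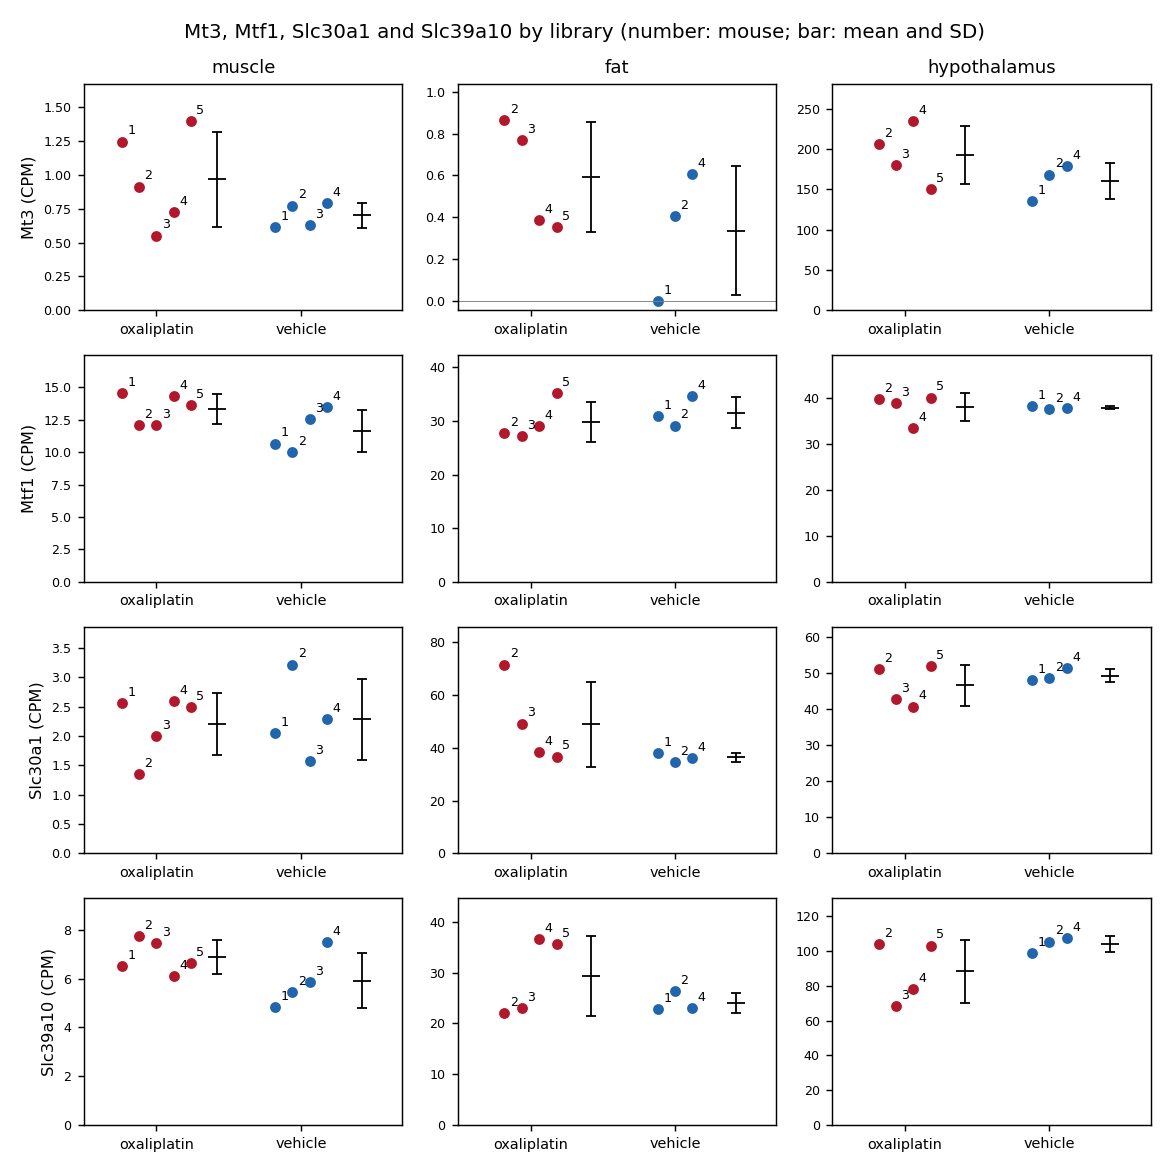
Level in CPM (y axis, linear, 1 scale per panel) of Mt3, Mtf1, Slc30a1 and Slc39a10 (rows) in muscle, fat and hypothalamus (columns). Each point is a library with its mouse number, oxaliplatin left of vehicle, and bars give mean and SD; every panel has overlapping groups, and Slc30a1 in fat reaches 71.6 CPM in oxaliplatin mouse 2.

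**Figure D3:**
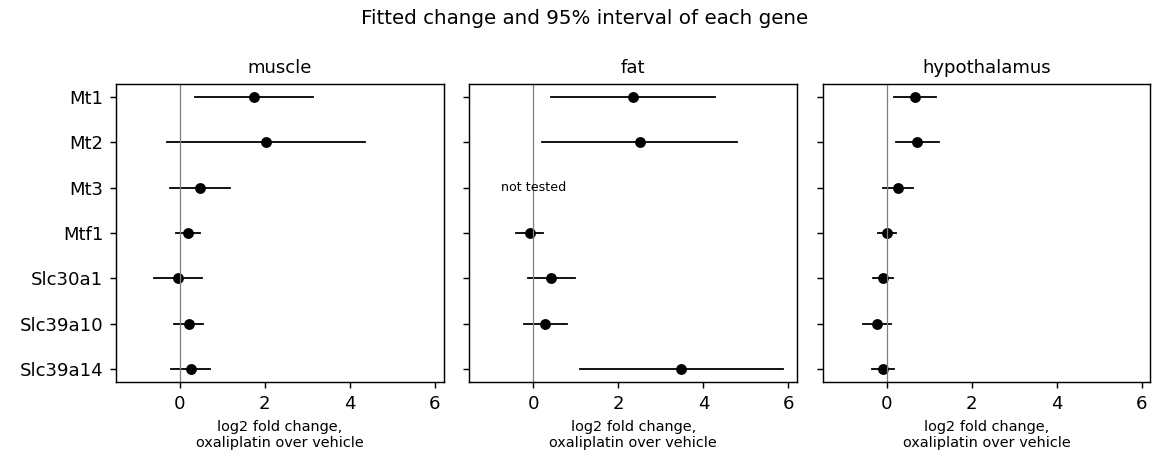
Fitted log2 fold change, oxaliplatin over vehicle (x axis), of each member (y axis) in the 3 tissues, with 95% intervals from edgeR. The intervals of Mt1, Mt2 and Slc39a14 in fat lie above 0 and are several units wide, and those of Mtf1 are narrow and include 0 in every tissue.

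The oxaliplatin effect was compared between tissues by fitting both tissues together and testing the difference. For Slc39a14 the effect in fat minus that in muscle was 3.25 ± 0.96 on the log2 scale (95% interval 1.19 to 5.30, edgeR adjusted p = 0.132) and the effect in fat minus that in hypothalamus 3.55 ± 0.98 (1.43 to 5.67, adjusted p = 0.102). Neither passed, where 0.239% and 0.311% of all genes did. DESeq2 called both (adjusted p = 0.00797 and 0.00454), where it called 4.26% and 6.09% of all genes. So did edgeR without oxaliplatin fat library 5 (3.61 and 3.93, adjusted p = 0.00496 and 0.00266), where it called 8.64% and 15.2% of all genes. For Mt1 the effect in fat minus that in muscle was 0.64 ± 1.02 and that in fat minus hypothalamus 1.67 ± 0.84 (edgeR adjusted p = 0.798 and 0.288). For Mt2 these differences were 0.50 ± 1.42 and 1.78 ± 0.98. Without oxaliplatin fat library 5, the Mt1 difference between fat and hypothalamus passed (2.03, edgeR adjusted p = 0.0335). Between muscle and hypothalamus no member passed either, where 0.0689% of all genes did.

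The other zinc transporters of the mouse were taken as 2 lists, 9 further exporters (Slc30a2 to Slc30a10) and 12 further importers (Slc39a1 to Slc39a13 without Slc39a10). None was called in any tissue: 6, 6 and 8 exporters and 9, 10 and 11 importers were tested in muscle, fat and hypothalamus. The exporter medians were -0.19, -0.10 and -0.0014, and the importer medians -0.04, 0.07 and -0.07. In fat Slc39a8, which encodes ZIP8, a near relative of ZIP14, was at 13.8, 11.2, 12.3 and 10.3 CPM in oxaliplatin mice 2 to 5, and at 6.88, 5.03 and 5.06 CPM in vehicle mice 1, 2 and 4. The groups did not overlap, mouse 5 included (1.08 ± 0.19, edgeR adjusted p = 0.0878), as for 21.5% of all fat genes tested. Among the further importers tested in fat, 2 had groups without overlap with oxaliplatin higher, Slc39a8 included, and 2 with oxaliplatin lower. Among the further exporters there was 1, with oxaliplatin lower. Slc39a11, another importer, was lower, at 6.27, 8.67, 7.65 and 14.5 CPM in oxaliplatin mice 2 to 5 and 17.1, 17.2 and 15 CPM in vehicle mice 1, 2 and 4 (-0.83 ± 0.28, edgeR adjusted p = 0.141).

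In muscle the exporter of smallest p was Slc30a2, a vesicular zinc transporter, at 2.56, 1.90, 2.90, 4.20 and 1.75 CPM in oxaliplatin mice 1 to 5 and 5.09, 4.07, 6.85 and 9.13 CPM in vehicle mice 1 to 4. Oxaliplatin 4 overlapped vehicle 2 and the other four lay below the vehicle range (-1.24 ± 0.29, edgeR adjusted p = 0.136). In hypothalamus Slc30a10, an exporter known for manganese, was at 13.9, 15.9, 11.5 and 19.1 CPM in oxaliplatin mice 2 to 5 and 21, 20.6 and 22.3 CPM in vehicle mice 1, 2 and 4 (-0.50 ± 0.16, edgeR adjusted p = 0.370). Slc30a3, the synaptic vesicle zinc transporter, was at 79.6 CPM in oxaliplatin mouse 2 and at 3.54, 6.54 and 5.68 CPM in mice 3 to 5, against 5.58, 4.43 and 3.47 CPM in vehicle mice 1, 2 and 4. That high value was of a single library, and its mean difference rests on it.

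**Figure D4:**
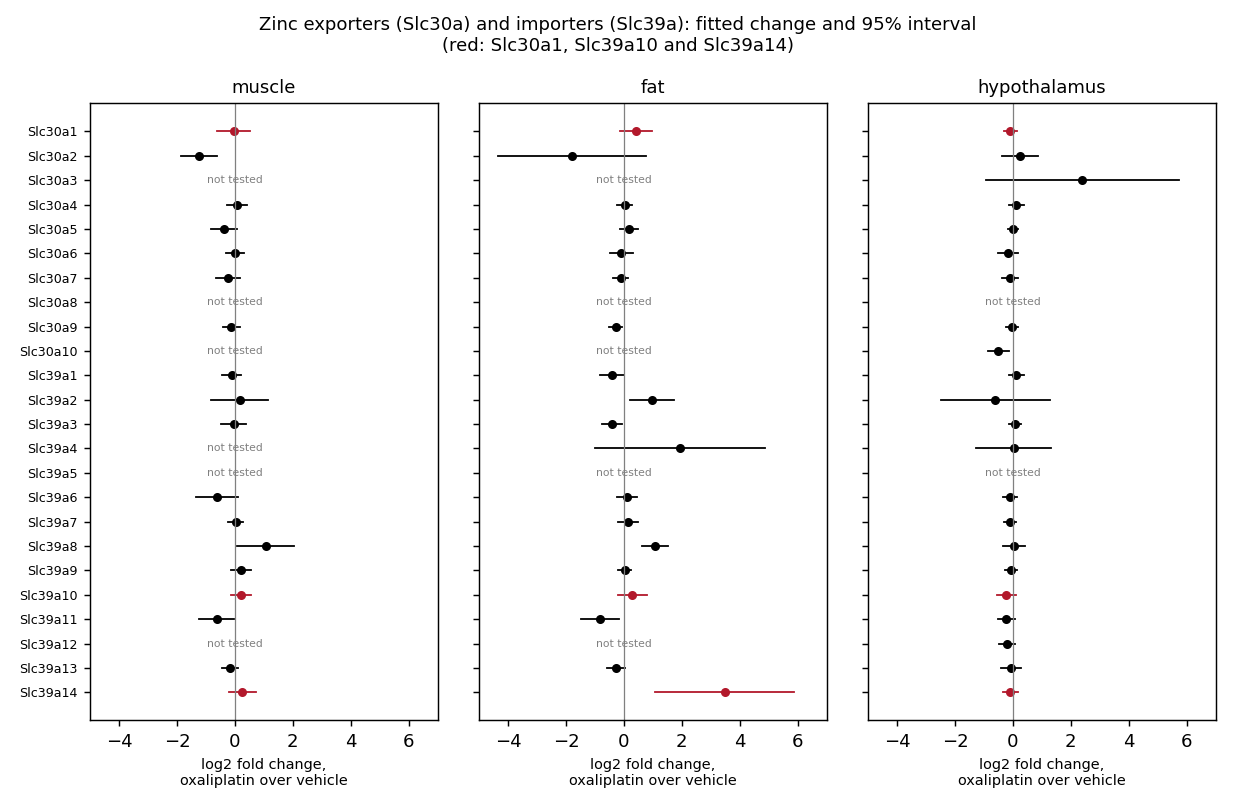
Fitted log2 fold change, oxaliplatin over vehicle (x axis), of zinc exporters and importers (y axis) in the 3 tissues, with 95% intervals from edgeR; members are in red and genes under the filter are marked not tested. Slc39a14 in fat has the largest value, 3.48, and Slc39a8 in fat a narrower interval above 0.

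Genes of metal and oxidant stress were described next, since metallothioneins are known to respond to the same stresses. Of the 10 on the list, 9, 10 and 10 were tested in muscle, fat and hypothalamus and none was called, with medians of -0.00097, 0.37 and 0.19. Mt4, the remaining metallothionein, was not in the tables analysed here. In fat Hmox1, the haem oxygenase, was at 327, 129, 57.5 and 40.6 CPM in oxaliplatin mice 2 to 5, and at 24.8, 27.1 and 30.0 CPM in vehicle mice 1, 2 and 4. The order of mice was that of Mt1 and mouse 5 was still above the vehicle libraries (2.34 ± 0.73, edgeR adjusted p = 0.130). Ftl1, a ferritin subunit, averaged 1599 ± 419 CPM with oxaliplatin and 816 ± 103 CPM with vehicle in fat (0.97 ± 0.27, edgeR adjusted p = 0.12). In hypothalamus Fth1, the other ferritin subunit, averaged 1287 ± 256 and 913 ± 50.7 CPM (0.50 ± 0.15, edgeR adjusted p = 0.353). In muscle Srxn1, which repairs oxidised peroxiredoxins, averaged 8.25 ± 1.74 and 12.1 ± 3.01 CPM (-0.55 ± 0.19, edgeR adjusted p = 0.336).

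Glucocorticoid-induced genes were listed because these hormones are known inducers of Mt1 and Mt2. All 8 had a log2 fold change above 0 in each tissue, with medians of 0.51, 0.95 and 0.98 in muscle, fat and hypothalamus. Among all genes tested, 47.8%, 52.4% and 52% were above 0. The list was chosen with earlier results of these data known, so the count of 8 is not a test. The smallest value was that of Tsc22d3 in muscle (0.0089 ± 0.26). Of the list 1 gene passed, Cebpd in hypothalamus, where 0.148% of all genes did. The mean log2 level of the 8 genes relative to the vehicle mean was 1.95, 1.85, 1.25 and 0.32 in fat of oxaliplatin mice 2 to 5, against -0.01, -0.52 and 0.53 in vehicle mice 1, 2 and 4. It was 1.40, 1.44, 1.0 and 0.53 in the same order in oxaliplatin hypothalamus, against 0.06, -0.20 and 0.14 with vehicle. In muscle it was 0.66, 0.11, 0.44, 0.58 and 1.39 in oxaliplatin mice 1 to 5, with mice 5 and 1 highest as for Mt1, against -0.46, 0.08, 0.27 and 0.11 in vehicle mice 1 to 4. The labels of muscle library 5 disagree, and whether this list has a part in the metallothionein levels was not tested.

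Among the named members of that list, Fkbp5, a co-chaperone of the glucocorticoid receptor, was at 1287, 762, 534 and 152 CPM in fat of oxaliplatin mice 2 to 5, and at 79.8, 65.6 and 146 CPM in vehicle mice 1, 2 and 4 (2.81 ± 0.71, edgeR adjusted p = 0.116). In muscle it was at 55.5, 16.2, 28.9, 29.6 and 95.6 CPM in oxaliplatin mice 1 to 5, and at 9.27, 9.28, 15 and 13.4 CPM in vehicle mice 1 to 4 (1.94 ± 0.50, adjusted p = 0.223). In both tissues the order of the oxaliplatin mice was that of Mt1. Cebpd, an acute-response transcription factor gene, was the member called in hypothalamus, at 30.3, 29.4, 23.8 and 11.8 CPM in oxaliplatin mice 2 to 5, and at 3.22, 4.00 and 5.02 CPM in vehicle mice 1, 2 and 4 (2.55 ± 0.34, edgeR adjusted p = 0.0483).

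Genes of the acute phase and interleukin 6 response were listed because that cytokine is known to induce ZIP14 in liver. Of those tested, 0 of 6 passed in muscle, 0 of 7 in fat and 2 of 6 in hypothalamus. Among all genes tested, 0.163%, 0% and 0.148% passed in these tissues. In fat their mean log2 level was 1.12, 0.45, 0.73 and 0.36 in oxaliplatin mice 2 to 5, against -0.48, 0.42 and 0.06 in vehicle mice 1, 2 and 4. In hypothalamus Lrg1, a secreted glycoprotein gene, passed at 5.72, 5.88, 4.96 and 4.61 CPM in oxaliplatin mice 2 to 5, against 0.410, 0.972 and 0.443 CPM in vehicle mice 1, 2 and 4 (3.11 ± 0.31, edgeR adjusted p = 0.00738). Lcn2, which encodes an iron-binding acute phase protein, passed as well, at 11.7, 6.54, 3.96 and 3.13 CPM with oxaliplatin and at 0.0684, 0.324 and 0.0738 CPM with vehicle (edgeR adjusted p = 0.0458). The list was divided in hypothalamus, with 3 tested genes above 0 and 3 below. Osmr was the third above 0 (1.51 ± 0.38). Those below 0 were Socs3 (-0.10 ± 0.24), Stat3 (-0.09 ± 0.09) and Timp1 (-0.0067 ± 0.53).

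The levels of cell type markers stand beside these values. In fat the mean log2 level of the 5 adipocyte markers was -2.52, -2.70, -2.28 and -0.27 in oxaliplatin mice 2 to 5, against 0.22, -0.10 and -0.12 in vehicle mice 1, 2 and 4. By this mean mice 2 to 4, the libraries with high Mt1, Mt2 and Slc39a14, were the ones with low adipocyte markers, although none of the 5 genes was called and none was at 0. All 5 were below 0 and differed in size. Lep was at -3.10 ± 1.49, Plin1 at -1.68 ± 0.82 and Fabp4 at -1.11 ± 0.45. Cidec (-0.39 ± 0.24) and Adipoq (-0.35 ± 0.25) differed less. Only Lep had groups without overlap, as had 21.5% of all fat genes tested. The level of the 4 fibroblast markers in the same libraries was -2.59, -1.80, -1.76 and 0.36 in oxaliplatin mice 2 to 5, against -0.31, 0.29 and 0.01 in vehicle mice 1, 2 and 4. By this mean mice 2 to 4 were low in fibroblast markers too, and none of the 4 was called. Summed, they were at 567, 962, 814 and 3649 CPM in oxaliplatin mice 2 to 5 and at 1859 to 2778 CPM with vehicle. The 4 genes differed: Col1a1 was at -1.10 ± 1.44 and Lum at -1.32 ± 1.07, while Pdgfra was at -0.12 ± 0.26 and Dcn at 0.19 ± 0.21. Summed macrophage markers were 271, 368, 402 and 725 CPM in oxaliplatin mice 2 to 5 and 306 to 618 CPM with vehicle, with none called. Of these 6 genes, 2 were above 0, Cd68 (1.08 ± 0.32) and Ptprc (0.68 ± 0.78), and 4 below. Cd68 was higher in every oxaliplatin fat library than in any vehicle library. In hypothalamus 6 endothelial markers summed to 147 to 224 CPM with oxaliplatin and 108 to 116 CPM with vehicle, and 1 of them, Pecam1, was called (1.49 ± 0.18, edgeR adjusted p = 0.0212). All 6 were above 0 and differed in size. Cldn5 was at 1.18 ± 0.24 and Cdh5 at 0.82 ± 0.15. Tie1 (0.25 ± 0.13), Tek (0.18 ± 0.13) and Egfl7 (0.18 ± 0.13) had overlapping groups. Pecam1 was also the call among the 6 in muscle (0.68 ± 0.11, edgeR adjusted p = 0.0443). The part of these cell types in the metallothionein and transporter values was not tested.

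Erythroid markers, the haemoglobin genes Hba-a1, Hba-a2, Hbb-bs and Hbb-bt of red blood cells, were low in the libraries where Mt1 and Mt2 were highest, in all 3 tissues. Summed over the 4 genes they were at 87.8, 1684, 758, 1914 and 106 CPM in muscle of oxaliplatin mice 1 to 5, against 546 to 919 CPM with vehicle. They were at 199, 315, 544 and 1501 CPM in fat of oxaliplatin mice 2 to 5, against 668 to 921 CPM with vehicle. They were at 97.7, 72.8, 248 and 1303 CPM in hypothalamus of oxaliplatin mice 2 to 5, against 637 to 900 CPM with vehicle. The low libraries were mice 1 and 5 in muscle, where the labels of library 5 disagree, and mice 2 to 4 in fat and hypothalamus. The other oxaliplatin libraries lay within or above the vehicle range. None of the 4 genes was called in any tissue and none was at 0, and their part in the values of Mt1, Mt2 and Slc39a14 was not tested.

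**Figure D5:**
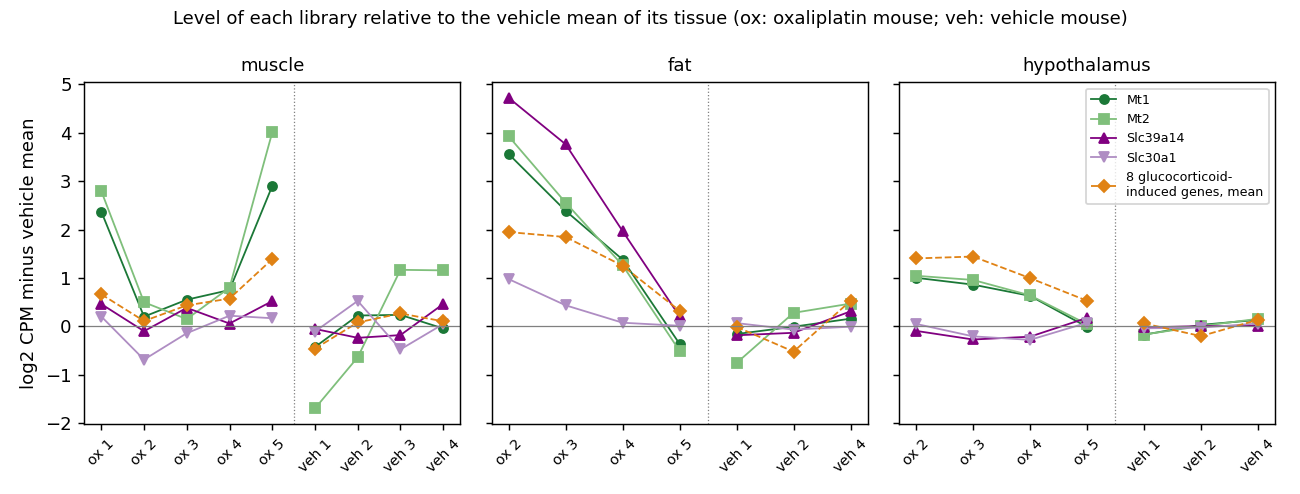
Level of each library as log2 CPM minus the vehicle mean of its tissue (y axis) for Mt1, Mt2, Slc39a14, Slc30a1 and the mean of 8 glucocorticoid-induced genes, in muscle, fat and hypothalamus (panels), with oxaliplatin libraries left of vehicle libraries. In fat and hypothalamus the oxaliplatin values of Mt1 and Mt2 are highest in mouse 2 and lowest in mouse 5, and in muscle they are highest in mouse 5; the lines join libraries only to guide the eye.

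The genes whose pattern over the libraries of a tissue was most like the average of Mt1 and Mt2 were found by the smallest root mean square difference on that log2 scale. In fat, over 7 libraries and 13840 genes, they were Paqr6 (0.181), Cyp51, a sterol demethylase gene (0.395), and Tc2n (0.430), where the median gene was at 1.85. Slc39a14 was at 0.716 and Slc30a1 at 1.41. In hypothalamus, over 7 libraries and 13965 genes, they were Acot1, an acyl-CoA thioesterase gene (0.0824), Plat, which encodes tissue plasminogen activator (0.0956), and Mapk4 (0.0968), with a median gene of 0.603. In muscle, over 9 libraries and 11157 genes, they were Ppp1r3c, a glycogen-targeting phosphatase subunit gene (0.458), Scn3b (0.489) and Ms4a4a (0.512), with a median gene of 1.56. The lists of the 3 tissues share no gene.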

How the data were processed

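Total RNA of 23 samples was sequenced, and the authors deposited 1 table of expected counts per gene for each tissue, not scaled between libraries. Per the labels' protocols, a RiboErase kit was used for fat and hypothalamus and a Clontech SMARTer kit for muscle. The submitters' processing notes name STAR 2.5.1a, Partek and DESeq2 without their roles, and no source used here states the genome build. Non-whole numbers made up 45.7% of the deposited values of muscle, 41.4% of those of fat and 49.1% of those of hypothalamus, where whole counts had been assumed, so they were rounded to whole numbers. Gene starts equalled those of GENCODE M21 for 99.4% to 99.5% of shared identifiers.

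Genes were kept with edgeR 4.0.16 filterByExpr (minimum count 10, minimum total 15), scaled by TMM and tested per tissue with glmQLFit (robust) and glmQLFTest in R 4.3.3, with Benjamini-Hochberg adjustment over all genes tested. CPM values use TMM library sizes. The SE is the size of the log2 fold change over the root of its F value, and intervals are 95%. Differences between tissues were tested as an interaction in 1 fit of both tissues. Log2 levels used a prior count of 2. No pair of libraries within a group was a copy: chi-square per degree of freedom was 6.75 or more in each of 34 pairs. The fit was also run on simulated counts with the same dispersion for every gene and no outlying library. These libraries have a less even spread, so that run does not measure the power of the test on them. Alternatives were DESeq2 1.42.0 (size factors, and its own test), limma-voom (limma 3.58.1), other filters, 1 fit over all tissues, a replicate block, each library left out and muscle library 5 as vehicle.

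The members and the gene lists were chosen with earlier results of these data known. All members are named, and of each list the genes called in a tissue or, where none was, up to 3 of smallest p, of which the text gives a part. The likeness rule took 3 genes per tissue with a mean of at least 1 CPM, leaving out unnamed gene models.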

Additional observations from a re-analysis of the deposited data

How the results depend on the processing

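In muscle no member passed under any alternative. In fat 3 members passed with DESeq2 (Mt1, Mt2 and Slc39a14), where 12.2% of all genes did. In 1 fit over all tissues 2 passed in fat (Mt1 and Slc39a14), where 15.7% of all genes did. With a library left out, 0 to 2 passed in fat and 0 to 2 in hypothalamus. The 2 passed without oxaliplatin 5, where 25.5% of all genes did so in fat and 3.49% in hypothalamus. The difference between fat and muscle was called for 1 member with DESeq2 and for 0 to 1 with a library left out. That between fat and hypothalamus was called for 1 and for 0 to 2. Of all genes, DESeq2 called 4.26% and 6.09% in these differences. Without oxaliplatin fat library 5, edgeR called 8.64% and 15.2%. With muscle library 5 as vehicle, log2 values turned for Mt2 in muscle (-0.62), and for the muscle minus hypothalamus difference of Mt1 (-0.59), Mt2 (-1.30), Mt3 (-0.19) and Slc30a1 (-0.00078). Mtf1 in hypothalamus turned with DESeq2's size factors (-0.0011), DESeq2 (-0.0013), the replicate block (-0.047) and 1 fit over all tissues (-0.030). Over the fits that each leave out 1 library, values on both sides of 0 were found for Slc30a1 in muscle (-0.19 to 0.17) and for Mtf1 in fat (-0.18 to 0.0062) and hypothalamus (-0.032 to 0.051). The same held for the differences fat minus muscle of Mt1 (-0.23 to 1.147), Mt2 (-0.54 to 1.45), Mt3 (-0.26 to 0.997) and Slc39a10 (-0.061 to 0.16), fat minus hypothalamus of Mt3 (-0.048 to 1.17) and muscle minus hypothalamus of Slc30a1 (-0.071 to 0.28). The cause was not tested. In the settings above, 14 values of Mt1, Mt2 and Slc39a14 newly passed, and the other 826 values under an alternative kept their direction and their side of the threshold, or stayed within 1.5 times where they are counts.

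Mouse numbers did not pair the libraries: same-numbered oxaliplatin and vehicle libraries had deviations correlated at 0.0512, -0.0936, -0.177 and 0.174 for mice 1 to 4 in muscle, and at most 0.0323 in the other two tissues. With the number as a replicate block, 0 members passed in each tissue, with Mt1 at 0.93 in muscle, 2.39 in fat and 0.73 in hypothalamus. With the animal as a random effect in limma-voom, 0 members passed in the differences between tissues. Mt3 had at most 47 counts per library in muscle and 16 in fat.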
